A study of Mus musculus with 6 samples.

Results

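Yap1, Wwtr1, the Tead factors and their classical target genes form the output arm of the Hippo pathway, and their RNA was followed here in colon tumour cells with and without an inhibitor of the Group I Paks. The 10 genes were chosen by name: the co-activators Yap1 and Wwtr1 (Taz), the DNA-binding factors Tead1, Tead2, Tead3 and Tead4, and the targets Ankrd1, Amotl2, Ctgf (now Ccn2) and Cyr61 (now Ccn1). All 10 were found among the 21966 genes of the deposited table, and all 10 had an FPKM (fragments scaled to transcript length and library size) that reached 5 on average over the conditions. In the Hippo pathway, the kinases Mst1 and Mst2 activate Lats1 and Lats2, which phosphorylate Yap1 and Wwtr1 and keep them out of the nucleus. Unphosphorylated Yap1 and Wwtr1 enter the nucleus, bind Tead factors, which cannot activate transcription well alone, and switch on genes of growth, adhesion and matrix. In the intestine this output is low in the resting epithelium, and it is high in regeneration and in many tumours that have lost Apc.

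The cells were primary lines established from colon adenomas of mice on crosses with C57BL6/J. PID+ cells (samples 4, 7 and 26 in the labels) had the genotype CDX2P-NLS-Cre;APC(Δ/+) with the ROSA26-PID allele, whereas PID- cells (samples 1, 2 and 3) had CDX2P-NLS-Cre;APC(Δ/+) without it. The study gives its PID+ cells the same numbers as the labels but numbers its PID- cells otherwise. PID is the Pak inhibitor domain, a peptide from Pak1 that blocks Group I Pak kinases, placed at the Rosa26 locus behind a stop cassette that Cre removes. In both groups Cre was driven by the Cdx2 promoter, which is active in the epithelium of the large intestine and the distal small intestine, and both groups carry the Apc deletion. In the labels the PID- samples are named normal and untreated, although they too were tumour cells. No row of the table stands for the transgene, and the 2 conditions were not checked on it. The 3 samples of each condition were pooled into 1 FPKM per gene, with a lower and an upper confidence bound. There are therefore no replicates to compare, no p-values are given, and the deposited bounds are the error given with the main values below. Changes are log2 ratios of FPKM + 1 in PID+ over PID- cells, a scale that understates changes of genes with low FPKM, and genes that passed 3-fold on it were counted as changed.

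Cyr61 was the 1 gene of the 10 that passed 3-fold, with a higher level in PID+ cells, and none of the 10 passed in the other direction. As background to this count, 1.04% of all 21959 genes with a valid status passed 3-fold on the higher side and 1.72% on the lower side. Among the 9341 genes whose mean FPKM reached 5, these shares were 1.54% and 2.37%. At 2-fold and with FPKM as deposited, Cyr61 was again the only one of the 10 to pass, against 5.01% of these 9341 genes on the higher side and 5.2% on the lower side. For none of the 10 did the deposited bounds of the 2 conditions lie apart, against 0.187% of all genes apart with the higher level in PID+ cells and 0.542% with the lower. Over the 10 genes the median log2 ratio was 0.09, within a range from -0.93 for Ankrd1 to 1.67 for Cyr61, and the median of the 9341 genes was -0.0012. These 2 medians were -0.011 and -0.10 with equal total FPKM, and -0.52 and -0.58 with Gapdh set equal. In cultures of several cells, fewer cells of a type and less RNA per cell cannot be told apart.

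Both co-activators were expressed in both conditions, with lower point values in PID+ cells. Yap1 (chr9:7931999-8004596 of GRCm38, minus strand) reached an FPKM of 40.6 in PID+ cells (bounds 16.7 and 64.6) and 48.5 in PID- cells (20.9 and 76.1), a log2 ratio of -0.25. With Gapdh set equal the log2 ratio of Yap1 was -0.86. Wwtr1 (chr3:57455649-57575910, minus strand), a paralog of Yap1 with the same Tead partners, had 19.3 in PID+ cells (7.71 and 30.8) and 26.4 in PID- cells (11.4 and 41.4), a log2 ratio of -0.44 that passed 2-fold, at -1.02, with Gapdh set equal. For each gene the bounds of one condition enclosed the value of the other. FPKM is scaled to transcript length, so levels can also be set side by side between genes: Yap1 took 67.8% of the summed FPKM of the pair in PID+ cells and 64.8% in PID- cells, 2.11 and 1.84 times the level of Wwtr1.

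The 4 Tead genes encode factors with the same type of DNA-binding domain, and all 4 were expressed in both conditions. Tead1 (chr7:112679318-112906807, plus strand) had the highest FPKM of the family, with 37.2 in PID+ cells (4.96 and 69.5) and 23.8 in PID- cells (4.31 and 43.2), a log2 ratio of 0.63. Tead4 (chr6:128224288-128300823, minus strand) had 15.9 in PID+ cells (3.01 and 28.9) and 9.33 in PID- cells (1.61 and 17.0), a log2 ratio of 0.71. In both genes the bounds overlapped, and the expressed genes of chromosomes 7 and 6 (mean FPKM from 5 up) had median log2 ratios of 0.25 and 0.34. Tead2 (chr7:45215753-45233644, plus strand), known from early embryos, had 20.01 in PID+ cells (2.996 and 37.0) and 18.1 in PID- cells (4.15 and 32.1), a log2 ratio of 0.14 that became -0.45 with Gapdh set equal and -0.11 relative to its chromosome. Tead3 (chr17:28331671-28350817, minus strand) had 9.08 in PID+ cells (0.823 and 17.3) and 9.71 in PID- cells (0.919 and 18.5), a log2 ratio of -0.09. The family summed to an FPKM of 82.3 in PID+ cells and 60.9 in PID- cells, and with Gapdh set equal the sum in PID+ cells was 53.3, below that in PID- cells. At that scaling the log2 ratios of Tead1 and Tead4 were 0.02 and 0.13. Of this sum Tead1 took 45.3% in PID+ and 39.0% in PID- cells, Tead2 24.3% and 29.8%, Tead4 19.4% and 15.3%, and Tead3 11.0% and 15.9%. Tead1 was followed by Tead2 in both conditions, while Tead3 and Tead4 exchanged places at the lower end, with bounds that overlapped between neighbours throughout.

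The 4 target genes had ratios that pointed in different directions. Cyr61 (chr3:145646976-145649981, minus strand), a secreted matrix protein that binds integrins, reached an FPKM of 165 in PID+ cells (75.7 and 255) and 51.2 in PID- cells (21.3 and 81.1). It was 3.23 times as high in PID+ cells, a log2 ratio of 1.67, and the lower bound in PID+ cells lay just below the upper bound in PID- cells. The call at 3-fold, which is 1.58 on the log2 scale, was lost with equal total FPKM (1.57), with Gapdh set equal (1.05) and relative to the median of 0.25 on chromosome 3 (1.42). Amotl2 (chr9:102716672-102733418, plus strand), an angiomotin that binds Yap1 and holds it in the cytoplasm, had 127 in PID+ cells (29.0 and 225) and 66.6 in PID- cells (17.9 and 115), a log2 ratio of 0.92. Ankrd1 (chr19:36111961-36120099, minus strand), an ankyrin repeat protein of muscle and of stretched cells, stood on the other side, with 90.4 in PID+ cells (39.6 and 141) and 173 in PID- cells (79.4 and 266), a log2 ratio of -0.93. The bounds of Amotl2 and of Ankrd1 overlapped between the conditions, and neither gene reached 2-fold with FPKM as deposited. Ankrd1 passed 2-fold on the lower side with equal total FPKM (-1.03) and with Gapdh set equal (-1.54). Amotl2 passed it on the higher side relative to its chromosome (1.01), but its log2 ratio was 0.30 with Gapdh set equal. Ctgf (chr10:24595442-24598683, plus strand), a secreted matrix protein of the same family as Cyr61, had 1024 in PID+ cells (329 and 1719.9) and 994 in PID- cells (328 and 1659.9). Its log2 ratio of 0.04 became -0.060 with equal total FPKM and -0.58 with Gapdh set equal.

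**Figure D1:**
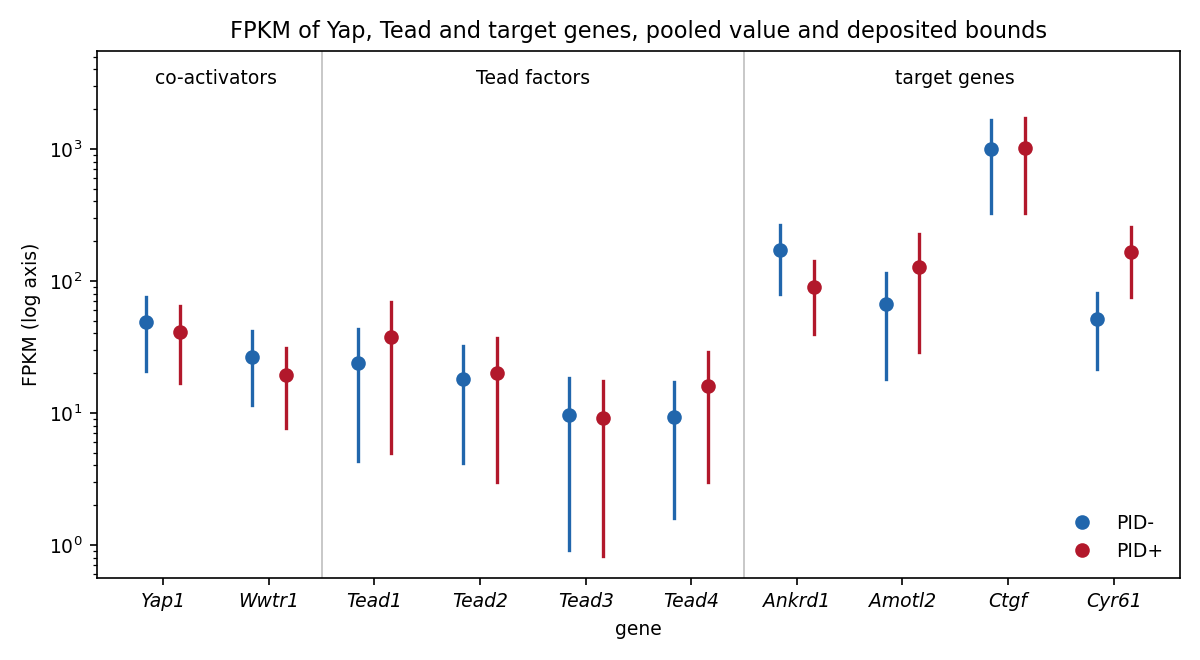
FPKM of the 10 genes on a log axis, in PID- cells (blue) and PID+ cells (red), with 1 pooled value per condition as a point and the deposited confidence bounds as a line. Ctgf lies at 1024 in PID+ and 994 in PID- cells, and the bounds of Cyr61, whose values are 165 and 51.2, overlap from 75.7 to 81.1.

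Ctgf dominated the target genes and was the 1 gene of the 10 whose bounds lay apart from those of its neighbour in the order of levels, in both conditions. It took 72.8% of the summed FPKM of the 4 targets in PID+ cells and 77.4% in PID- cells, out of sums of 1407 and 1284 (912 and 1284 with Gapdh set equal), and ranked 61 and 67 among all genes. The 3 other targets came next in both conditions but in another order. In PID+ cells Cyr61 was followed by Amotl2 and Ankrd1, and in PID- cells Ankrd1 was followed by Amotl2 and Cyr61. Cyr61 had 1.83 times the FPKM of Ankrd1 in PID+ cells and 0.297 times in PID- cells, and Amotl2 had 1.41 and 0.386 times the FPKM of Ankrd1. These ratios within a condition do not depend on its scaling, and they were picked after the values were seen. Yap1 came next after the 4 targets in both conditions, above all Tead factors.

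The depth behind these values can be estimated. FPKM of low genes fell on steps worth 1 read each, and by these steps the 10 genes rested on about 2027 to 161658 reads in PID+ cells and 2527 to 214616 in PID- cells, a rough estimate since 9 of the 10 have several annotated transcripts. The step was 1.37 times as large in PID+ as in PID- cells. The deposited bounds lay at a median of 72.6% of the FPKM above and below it in PID+ cells and 70.1% in PID- cells, over the 10 genes. Most of the 10 shared little sequence with other genes, and reads on shared sequence were not counted. Of the 50-base words in their transcripts, at most 0.307% also occurred in a coding transcript of another gene on either strand. Tead3 and Tead4 had 10 such words each. With transcripts of all types, Ctgf shares 17.2% of its words, with an antisense transcript, Gm15270, Yap1 shares 1.35%, and the other 8 at most 0.369%. Tead2 overlaps the coding gene Cd37 on the other strand, whose own FPKM was 0.106 (PID+) and 0.261 (PID-), and Yap1, Wwtr1, Tead1 and Tead4 overlap noncoding genes or pseudogenes there. The library kit is not stated to keep strand, so reads from sequence that both strands share, as in Ctgf, cannot be told apart.

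Of the 7 core kinases and adaptors that act on Yap1 and Wwtr1, 0 passed 3-fold on either side, where 1.54% and 2.37% of all genes whose mean FPKM reached 5 did, so that a count of 0 in so short a list is near the background. The list had a median log2 ratio of -0.06 (-0.67 with Gapdh set equal) and a range from -0.27 to 0.72. Mob1a, an activator of the Lats kinases, reached an FPKM of 58.7 in PID+ cells and 61.1 in PID- cells, and its paralog Mob1b had 23.8 and 22.6. The scaffold Sav1 had 34.6 and 41.9, and the kinase Stk3 (Mst2) had 23.9 and 28.2. Of the 19 upstream regulators again 0 passed in either direction, beside 1.04% of all genes on the higher side and 1.72% on the lower side. These regulators had a median of 0.11 (-0.32 with Gapdh set equal) and a range from -0.71 to 0.91. When 0.1 was added in place of 1, the kinase Tnik (0.557 and 0.0317) passed, at 2.32. Among the most abundant of them, the kinase Map4k4 had 78.1 in PID+ cells and 99.04 in PID- cells, and Rassf1, a partner of the Mst kinases, had 44.4 and 45.8. Wwc1 (Kibra), which promotes Lats activity, had 62.6 and 35.4, and the Lats inhibitor Ajuba had 60.9 and 32.03, with log2 ratios of 0.81 and 0.91 that stay below 2-fold. The Vgll co-factors compete with Yap1 for Tead factors. Of these 4 genes, 0 passed 3-fold on the log2 scale of FPKM + 1, beside the same 1.04% and 1.72% of all genes. Vgll4 was the most abundant, with 30.8 and 28.0, followed by Vgll3 with 5.09 in PID+ cells and 1.69 in PID- cells, a log2 ratio of 1.18 that passed 3-fold, at 1.68, relative to the median of -0.50 on its chromosome 16. Its FPKM ratio without the added 1 was 3.01. Both Vgll1 (0.224 and 0) and Vgll2 (0 and 0.0797) were at or near 0, and Vgll1 passed 3-fold, at 1.70, when 0.1 was added in place of 1.

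Beyond the 4 targets named above, 24 genes often listed as targets of Yap and Tead had 0 members past 3-fold on the higher side and 4 on the lower side, against 1.04% and 1.72% of all genes, with a median log2 ratio of 0.02. This median was -0.082 with equal total FPKM and relative to chromosome medians, and -0.58 with Gapdh set equal. Over the 19 genes whose mean FPKM reached 5 it was 0.17. The lists overlap: Lats2 (log2 ratio 0.72) was also counted among the core kinases and adaptors, and Ptpn14 (0.67) and Ajuba (0.91) among the upstream regulators. Tgfb2, a ligand of the TGF-β family, reached an FPKM of 0.492 in PID+ cells (0 and 1.18) and 19.9 in PID- cells (5.09 and 34.7), a log2 ratio of -3.81, and was the 1 gene of this list whose bounds lay apart. The transglutaminase Tgm2 had 14.6 in PID+ cells (2.35 and 26.8) and 55.2 in PID- cells (21.9 and 88.5), a log2 ratio of -1.85. Ccdc80, a matrix protein, had 0.141 and 8.61, on about 37.7 and 3147 estimated reads, and the mesenchymal transcription factor Foxf2 had 1.03 and 8.39. The most abundant genes of the list did not pass. Thbs1, a matrix protein, had 344 in PID+ cells and 306 in PID- cells, Igfbp3, which binds insulin-like growth factors, 291 and 151, the coagulation factor receptor F3 223 and 168, and the membrane repair protein Myof 142 and 168. Of the 19 genes of this list whose mean FPKM reached 5, 2 were at least 3-fold lower, against 2.37% of all such genes.

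The paralogs of Ctgf and Cyr61 in the Ccn family, all secreted matrix proteins, were low in both conditions, and 3 of 4 passed 3-fold with the lower level in PID+ cells. Nov (Ccn3) reached an FPKM of 0.0599 in PID+ cells and 2.69 in PID- cells, Wisp1 (Ccn4) 0.398 and 6.45, and Wisp2 (Ccn5) 0.133 and 6.97, with log2 ratios of -1.80, -2.41 and -2.81. Only for Wisp1 did the bounds lie apart, with an upper bound of 1.14 in PID+ cells and a lower bound of 1.28 in PID- cells. Wisp3 (Ccn6) had 0.0711 and 0.0689, on about 6 and 7.9 estimated reads. The mean FPKM of these 4 paralogs stayed below 5. Over the 55 pathway genes outside the first 10, each counted once, 0 were at least 3-fold higher and 7 at least 3-fold lower, beside the same 1.04% and 1.72% of all genes.

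**Figure D2:**
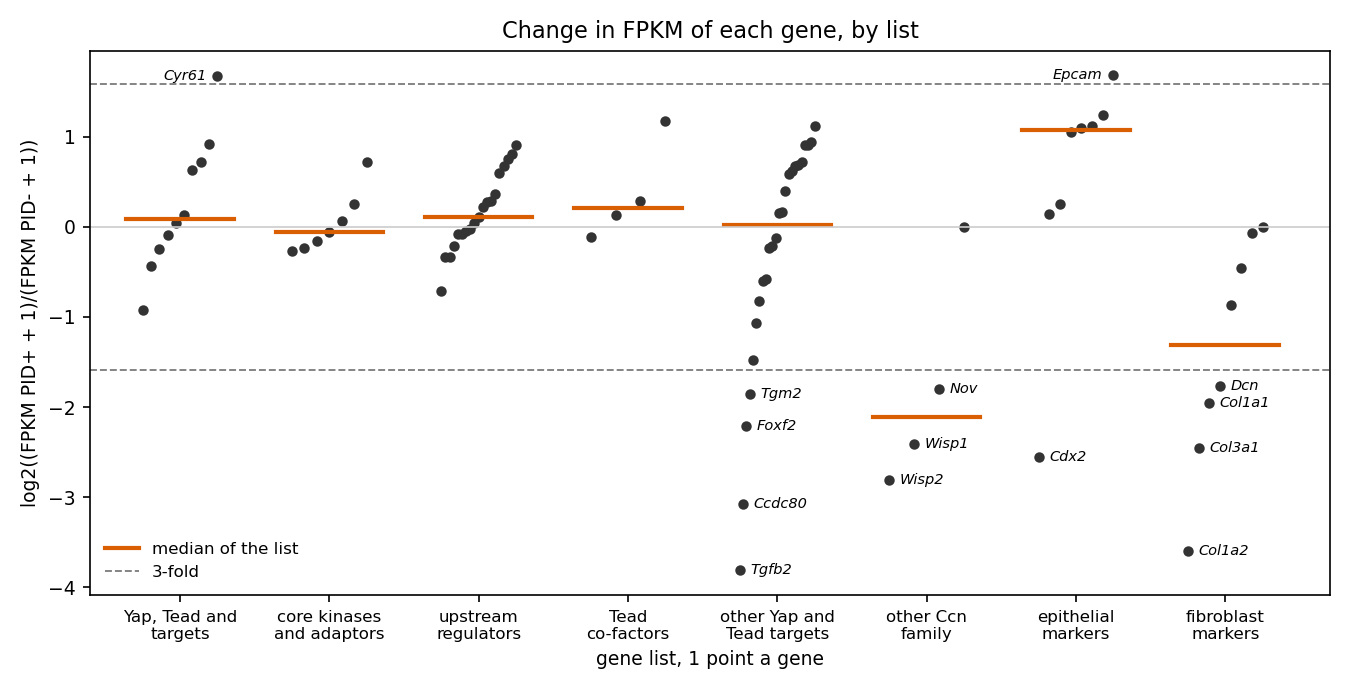
Log2 ratio of FPKM + 1, PID+ over PID- cells, of each gene in 8 lists (points), with the median of each list (bar) and dashed lines at 3-fold. Genes past 3-fold are named: Cyr61 among the first 10 genes, 4 other targets and 3 other Ccn genes on the lower side, and markers in both directions.

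Some fibroblast markers were also lower in PID+ cells. Of 8 fibroblast markers, 0 passed 3-fold on the higher side and 4 on the lower side, 1 of these (Col1a2) with bounds apart, against 1.04% and 1.72% of all genes. Their FPKM summed to 3.005 in PID+ cells and 34.1 in PID- cells. The most abundant of them in PID- cells was Col1a2, with 11.9 in PID- cells and 0.0654 in PID+ cells, followed by Col1a1 with 11.9 and 2.32 and Col3a1 with 6.35 and 0.339. Dcn (0 in PID+ and 2.39 in PID- cells) and Thy1 (0 and 0.377) were listed at 0 in PID+ cells, Lum was listed at 0 in both conditions, and Pdgfra was near 0 in both, with 0.188 and 0.243. Pdgfrb had 0.0896 and 0.987, 11.0 times as much in PID- cells, and passed 3-fold (-2.52), as did Thy1 (-2.25), when 0.1 was added in place of 1. Their part in the lower levels of Tgfb2, Tgm2, Ccdc80, Foxf2 and the Ccn paralogs was not tested.

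The 8 epithelial markers summed to 8809 in PID+ cells and 4886 in PID- cells, with Epcam (400.5 and 124, a log2 ratio of 1.68) past 3-fold on the higher side and the intestinal factor Cdx2 (0.542 and 8.04) on the lower side, beside the same shares of all genes. The call of Epcam was lost with equal total FPKM (1.576) and with Gapdh set equal (1.06), where the sum in PID+ cells was 5711. The most abundant of them, Krt19, Krt18 and Krt8, had 2469, 2843 and 2745 in PID+ cells and 2073, 1199 and 1319 in PID- cells, and the adhesion protein Cdh1, below Epcam, had 192 and 88.03, while Vil1, a marker of the intestinal brush border, was near 0 in both (0.175 and 0.0614). Keratins of simple epithelia were thus high in both conditions. The 6 smooth muscle markers summed to 6.05 in PID+ cells and 16.0 in PID- cells, with 1 of 6, Actg2 (0.280 and 3.06), at least 3-fold lower, against 1.72% of all genes, and Acta2 (4.39 and 9.76) the most abundant. The 6 endothelial markers summed to 4.17 (2.71 with Gapdh set equal) and 1.44, mostly from Kdr (3.33 and 1.01). With 0.1 added in place of 1, Kdr passed 3-fold (1.62), as did Cdh5 (1.64). Cdh5 was near 0 in both, with 0.219 and 0.00279 on about 57.2 and 1 estimated reads, and Emcn was listed at 0 in PID- cells. The 7 immune markers summed to 0.170 and 0.326, with Csf1r (0.0595 and 0.233) the highest in PID- cells and Cd3e listed at 0 in both. Genes often used as references had 0 of 7 past 3-fold, a median log2 ratio of 0.24, and FPKM of 2570.3 and 1666 for Gapdh, 2530.5 and 2143 for Ppia, 1909 and 1433 for Actb, and 1206 and 731 for Rplp0. The other 3 stood on the other side, with 213 and 388 for Hprt, 438 and 739.7 for Pgk1 and 16.8 and 17.9 for Tbp, so the genes used as references did not share a direction. Chromosome X, which holds Hprt and Pgk1, had a median log2 ratio of -0.45, and chromosome 6, which holds Gapdh, 0.34. The medians were 0.007 on chromosome 5 (Actb and Rplp0), 0.04 on chromosome 11 (Ppia) and -0.06 on chromosome 17 (Tbp). The part of these medians in the ratios was not tested.

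Reference promoters, from 250 bases before to 50 after a gene's start in RefSeq (GRCm38.p6), were found for 7 of the 10 genes, and were searched for the core of the Tead motif, GGAATG, or CATTCC on the other strand. The genes without an entry were Tead1, Tead4 and Ctgf. The letters occurred in 6 of the 7, all but Tead2, whereas 14.7% of 32851 reference promoters and 16.6% of 27025 genes held them. The targets among the 7 were chosen as known targets of Tead factors, and Wwtr1 and Tead3 had 2 and 3 reference promoters. The 6 of 7 can therefore not be read as an excess over these shares. A match is a description of the sequence and not a site of binding. The windows of the targets are shown since these 3 genes, all known for Tead binding, had different ratios between the conditions (1.67, 0.92 and -0.93). Each is written 5′ to 3′ on the gene's strand, with the match in capitals and 12 bases on each side.
Cyr61, chr3:145650071-145650100, minus strand: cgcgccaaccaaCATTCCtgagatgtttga
Amotl2, chr9:102717727-102717756, plus strand: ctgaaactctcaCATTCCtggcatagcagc
Ankrd1, chr19:36120037-36120066, minus strand: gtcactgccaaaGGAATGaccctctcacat
Ankrd1, chr19:36119950-36119979, minus strand: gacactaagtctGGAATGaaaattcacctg
The matches began 103 bases before the RefSeq start in Cyr61, 65 before it in Amotl2, and 210 and 123 before it in Ankrd1. Those of Amotl2 and Ankrd1 lie inside the Gencode spans given above, which begin further upstream. Yap1 had 1 match, 141 bases before its start, and Wwtr1 had 1 that lay 136 and 170 bases before its 2 reference starts. Of the 3 reference starts of Tead3, 1 had 1 match, 1 had 3, inside the Gencode span, and 1 had 0.

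**Figure D3:**
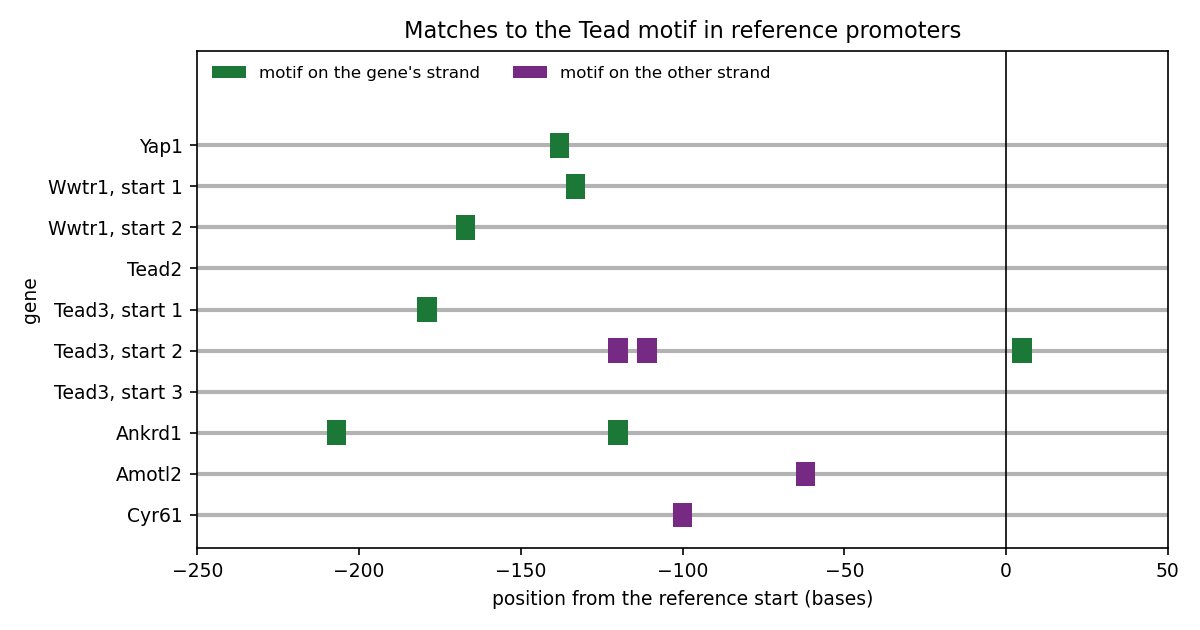
Matches to the Tead motif (boxes, to scale) in the reference promoters of 7 genes, by position in bases from the reference start, on the gene's strand (green) or the other strand (purple). Cyr61, Amotl2 and Ankrd1 hold matches within 210 bases before their RefSeq starts, and Tead2 holds none.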

How the data were processed

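RNA of 3 PID+ and 3 PID- samples was poly A selected and sequenced. After trimming with CutAdapt, the authors used TopHat and Bowtie2 for alignment to GRCm38.p3, merged the reads of each condition and deposited the FPKM per gene that CuffDiff gave, with confidence bounds of its own error model. The methods call the 3 sets of reads replicated sequencing runs and state paired ends, whereas the labels name 3 mice and state only a read length. CuffDiff ran with its option for compatible hits, which counts only fragments that match an annotated transcript in the library size; its method of scaling between libraries is not given in the sources used here. Rows named treated were taken as PID+ and those named untreated as PID-, after the labels.

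Of 21966 genes, 7 without a valid status in both conditions were left out. Identifiers matched 21734 symbols without regard to version, and positions and transcripts came from Gencode M21 (GRCm38). The log2 ratio used a pseudocount of 1. Depth per sample was not analysed here. The value of a read was the step that left most low values of FPKM times length whole, within 0.1 of a read, in genes with 1 transcript of at least 1000 bases and the same identifier version in both annotations. This left 98.8% of 429 values whole in PID+ cells and 97.8% of 460 in PID- cells. The length was reduced by 190 bases, a number taken over from earlier work on these data; of the numbers from 0 to 400 in steps of 20, 180 and 200 left the most whole in both conditions. A first attempt without the condition on identifier versions had left fewer values whole.

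The genes, lists and threshold were chosen with earlier results of these data known. Beside the 10 genes, the rule names each list gene past 3-fold or with bounds apart, and up to 4 more per list with the highest mean FPKM. Vil1, Emcn, Cd3e, Hprt, Pgk1, Tbp, Tnik, Cdh5, Edn1, Nt5e, Gadd45a, Lats2 and Ptpn14 were named outside this rule, after their values were seen. The read estimate's filter, the shared 50-base words, the level ratios and the split of genes by promoter match were chosen after values were seen. Protein identity was not analysed here. Alternatives were a pseudocount of 0.1, equal upper quartiles, equal totals, equal Gapdh, chromosome medians subtracted, a mean FPKM of at least 5, and 2-fold. The calculations were tested on simulated data with counting noise only and planted changes beyond 3-fold. This checks the code and not the spread between samples or smaller changes. Python 3.11.15, numpy 2.4.6, pandas 2.3.3 and matplotlib 3.10.9 were used.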

Additional observations from a re-analysis of the deposited data

How the results depend on the processing

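Of 183 values under the alternatives, over 30 results, 154 kept their sign and stayed within limits drawn from the deposited bounds of both conditions (for list medians, the medians of these limits), or within 1.5 times for counts. The bounds are wide, so this is a lenient measure. Many of the 154 were also counts of short lists that were 0 in the main setting and stayed at 0, which says little about stability. Within the limits the median of the Vgll co-factors moved from 0.21 to 0.84 with a pseudocount of 0.1. That of the core kinases and adaptors moved from -0.06 to -0.67 with Gapdh equal. Another 19 moved further and 10 changed sign. The cause was not tested for any of these. With Gapdh equal, the median log2 ratio of the 9341 genes whose mean FPKM reached 5 moved to -0.58, and with equal totals to -0.10. With equal totals the log2 ratio of Ctgf was -0.060, the median of the first 10 genes -0.011 and that of the other targets -0.082. With Gapdh equal these were -0.58, -0.52 and -0.58, Tead2 was at -0.45, and the median of the upstream regulators was -0.32. Relative to chromosome medians Tead2 was at -0.11 and the median of the other targets at -0.082. With equal totals, with Gapdh equal and relative to chromosome medians, 0 of the first 10 genes were at least 3-fold higher.

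Among all genes the numbers at least 3-fold higher and lower, 229 and 377, became 621 and 795 with a pseudocount of 0.1, 76 and 662 with Gapdh equal, 144 and 221 when the mean FPKM had to reach 5, and 726 and 828 at 2-fold. With a pseudocount of 0.1, 1 upstream regulator (Tnik) and 1 Vgll co-factor (Vgll1) were higher, and the median of the other Ccn genes was -3.92. Relative to chromosome medians and at 2-fold 1 co-factor, Vgll3, was higher, and at 2-fold 1 other target (Edn1) was higher and 6 were lower. Of the other targets, 4 in the main setting, 5 were lower with a pseudocount of 0.1 (Nt5e added) and 6 with Gapdh equal (Nt5e and Gadd45a added). When the mean FPKM had to reach 5, 2 other targets and 0 other Ccn genes were lower. The median of the other Ccn genes could not be given with that filter, which left 0 of them.

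No paired analysis was possible because the table holds 1 pooled value per condition. Leaving out each sample in turn and the sample number as a block were not run for the same reason. The depth of single samples was not analysed here.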

Other observations

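The Tead motif was also set beside the changes of all genes, a split picked after the values of the first 10 genes were seen and given without a test. Of the genes whose mean FPKM reached 5 and that have a reference promoter, 1037 had a match to GGAATG or CATTCC and 6399 had none. Of those with a match, 29 genes (2.80%) passed 3-fold with the higher level in PID+ cells and 27 (2.60%) with the lower. Of those without, 76 (1.19%) were higher and 132 (2.06%) lower. The medians of both sets lay near 0, at -0.02 and 0.0007. Among genes with a single reference start, 19 of 663 with a match (2.87%) and 63 of 5215 without (1.21%) were higher, and 17 (2.56%) and 103 (1.98%) were lower. The promoters of the sets also differed in base composition, with a median GC content of 59.4% and 62.0% over all these genes, and its part in the shares was not tested.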
